A study of Mus musculus with 16 samples.

Results

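Withdrawal of the niche factors from proximal mouse colon organoids that lack functional Cdx2 was described with 4 of the 16 RNA sequencing libraries of the series. The libraries were chosen by region, guide and medium in their titles: 2 proximal Cdx2-sgRNA libraries in WENR-plus medium and 2 in WENR-minus medium, labelled biological replicates 1 and 2. WENR-plus medium holds Wnt3a, EGF, Noggin and R-spondin 1, and WENR-minus medium lacks all 4, so the effect of Wnt withdrawal and the effects of removing EGF and Noggin cannot be told apart. Organoids are cultured epithelial structures grown from crypt stem cells. The organoids came from the colon of 2 female mice aged 8 weeks, and every group, controls included, carried a heterozygous Cre-inducible Braf V600E allele and a heterozygous tdTomato reporter. No Cre is named in the labels of these libraries. The Cdx2-sgRNA organoids carried a guide RNA that left a frameshift in both Cdx2 alleles and were expanded from single clones, whereas the scramble-sgRNA organoids are not described as clonal. In every difference between these groups, effects of the guide and of clonal origin cannot be told apart. The organoids spent 2 days in WENR-plus medium and then 3 days in the test medium. Compared groups were the proximal scramble-sgRNA organoids and the distal Cdx2-sgRNA organoids, each with 2 libraries per medium. Each group holds cultures of 2 mice, and the p-values rest on a spread pooled over all 16 libraries of the series.

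Crypt base stem cells are maintained by Wnt ligands, which stabilise beta-catenin and so let TCF/LEF factors activate targets such as Lgr5, Ascl2 and Axin2. R-spondin amplifies this signal, Noggin blocks BMP signalling, which otherwise promotes differentiation, and EGF drives proliferation. When these factors are removed, normal colonic crypt cells leave the cell cycle and mature into absorptive colonocytes and secretory cells. CDX2 is a homeobox transcription factor that specifies intestinal identity and activates many genes of the mature colonocyte.

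Total counts ran from 12465194 to 18922143 over the 16 libraries (median 16836530), and the 4 proximal Cdx2-sgRNA libraries lay between 12465194 and 16840209. Mitochondrial ribosomal RNA took 15.4% to 28% of the counts over all libraries. It took 28% and 23.4% in the proximal Cdx2-sgRNA WENR-plus libraries and 22.4% and 20.4% in the WENR-minus libraries, and its part in the results was tested only by leaving the mitochondrial genes out, which gave 977 called genes instead of 978. Levels below are CPM, counts per 1000000 on library sizes scaled by TMM, given for replicate 1 and then replicate 2. Epithelial identity markers summed to 5909 and 4297 CPM in WENR-plus and to 13920 and 13306 CPM in WENR-minus libraries. Of 10 fibroblast, 12 immune, 6 endothelial, 6 neural and 6 muscle markers, 4, 3, 2, 3 and 0 passed the filter on low counts. Their summed levels reached at most 25.5 CPM, for the 3 immune markers, where Cd68 and Csf1r held most of the sum (15 and 6.40 CPM in WENR-plus, 25.5 and 15.8 CPM in WENR-minus). Among defining markers, Ptprc, Cd3e, Cdh5, Col3a1 and Acta2 did not pass the filter. In bulk RNA, fewer cells of a type and less RNA per cell cannot be told apart.

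The gene that the guide cuts is reported ahead of all others. The guide is shown because it marks where both alleles were cut. Its target lies at chr5:147306482-147306504 (GRCm38) on the minus strand, in exon 1 of 3 of Cdx2, within the coding sequence and starting at base 479 of 933. The capitals mark the PAM.
Cdx2 guide target: agcggcgaaacctgtgcgagTGG
Cdx2 stood at 29.9 and 33.3 CPM in the WENR-plus libraries and at 73.9 and 71.0 CPM in the WENR-minus libraries of the proximal Cdx2-sgRNA organoids. Both WENR-minus libraries were higher (log2 fold change 1.20, SE 0.20, adjusted p = 0.00481, edgeR quasi-likelihood test with Benjamini-Hochberg adjustment over all 15289 genes tested). In proximal scramble-sgRNA organoids the level was 142 and 127 CPM with the factors and 203 and 151 CPM without, above every proximal Cdx2-sgRNA library. In distal Cdx2-sgRNA organoids it was 62.3 and 50.2 CPM with the factors and 126 and 86.1 CPM without. A frameshift does not remove the transcript, so these counts check the order of the guide labels and not the loss of the protein. The withdrawal effect on Cdx2 RNA did not pass the test of its difference from the scramble-sgRNA organoids (difference 0.80, SE 0.28, adjusted p = 0.125) or from the distal Cdx2-sgRNA organoids (0.28, SE 0.28, adjusted p = 0.54).

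Withdrawal changed 978 of the 15289 genes tested in proximal Cdx2-sgRNA organoids, 6.40% of them, where a call needed a log2 fold change beyond 1 in either direction and an adjusted p below 0.05. Counts of calls are those of edgeR unless DESeq2 is named. Of these genes 523 rose (3.42%) and 455 fell (2.98%), and 909 of the 978 are protein-coding. The libraries of both media did not overlap for 977 of them, against 52.2% of all genes tested. The median log2 fold change of all genes tested was −0.03. By the same rule, withdrawal changed 17.0% of genes in proximal scramble-sgRNA organoids, with 8.73% higher and 8.24% lower. It changed 33.1% in distal Cdx2-sgRNA organoids, with 14.9% higher and 18.1% lower. These shares are given side by side, because the fits share their estimate of the spread. All 16 libraries entered the fit. With only the 4 libraries of the comparison, which leave 2 residual degrees of freedom, edgeR called 0 genes while 2958 had an unadjusted p under 0.05. Fewer than these 978 genes were called without WENR-plus replicate 2, and fewer still without replicate 2 of the proximal Cdx2-sgRNA organoids in both media.

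Some genes of the Wnt response and of the crypt base fell on withdrawal, and more were not called. Of 25 Wnt target and feedback genes 22 passed the filter, of which 9 fell, 1 rose and 12 were not called, with a median log2 fold change of −1.37. Of 19 crypt bottom genes tested 9 fell, none rose and 10 were not called, with a median of −0.95, and 8 of the genes that fell are on both lists. The stem cell markers Lgr5, Ascl2 and Ephb2 were taken by the authors from earlier studies. The authors also measured them by qPCR in proximal Cdx2-sgRNA organoids in both media, so their direction was known from the study.

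Lgr5, the R-spondin receptor that marks crypt base stem cells, stood at 105 and 187 CPM in WENR-plus and at 3.56 and 4.44 CPM in WENR-minus libraries. Every WENR-minus value lay far below both WENR-plus values (log2 fold change −5.18, SE 0.71, adjusted p = 0.00192). Ascl2, a transcription factor of the same cells, went from 8.18 and 9.62 CPM to 0.297 and 0.635 CPM (−4.19, SE 0.69, adjusted p = 0.00432). Axin2, the negative feedback scaffold of the pathway, fell from 164 and 186 CPM to 31.7 and 19.3 CPM (−2.78, SE 0.34, adjusted p = 0.00127). The groups did not overlap for any of these genes, and all 3 calls held with any 1 of the 4 libraries left out. Ephb2, a receptor that positions crypt cells, was at 211 and 163 CPM and then at 153 and 97.3 CPM, a fall that missed the threshold (−0.58, SE 0.21, adjusted p = 0.0978).

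The ubiquitin ligases that remove Frizzled receptors fell as well. Rnf43 went from 280 and 398 CPM to 141 and 90.5 CPM (−1.55, SE 0.32, adjusted p = 0.0113), and its relative Znrf3 from 46.5 and 61.4 CPM to 19.4 and 17.9 CPM (−1.53, SE 0.27, adjusted p = 0.00582). Cd44, an adhesion receptor of crypt cells, fell from 407 and 620 CPM to 130 and 143 CPM (−1.91, SE 0.36, adjusted p = 0.00746). Sox9, a progenitor transcription factor, fell from 138 and 124 CPM to 52.6 and 13.2 CPM (−2.0, SE 0.58, adjusted p = 0.0425). The groups did not overlap, and the WENR-minus libraries of Sox9 stood far apart from each other. Sp5, a repressor induced by Wnt, was at 2.15 and 4.55 CPM and then at 3 reads or fewer per library, at least 17.6-fold lower (adjusted p = 0.03). Tnfrsf19, a TNF receptor family member of crypt cells, fell from 3.65 and 20.5 CPM to 0 and 0.688 CPM (−4.99, SE 1.14, adjusted p = 0.0164). The 1 list member that rose was Zbtb7c, from 4.23 and 4.65 CPM to 31.1 and 29.3 CPM (2.76, SE 0.43, adjusted p = 0.00371). With single libraries left out, the call was lost for Znrf3 and Cd44 without WENR-plus replicate 2 (adjusted p = 0.0516 and 0.0592), for Rnf43 without either replicate 2 library (up to 0.0855), for Sox9 in every case but WENR-minus replicate 1 (up to 0.147), for Sp5 in every case but WENR-plus replicate 1 (up to 0.125) and for Tnfrsf19 without WENR-plus replicate 2 or WENR-minus replicate 1 (up to 0.122). The 9 calls of the Wnt target list became 3 without WENR-plus replicate 2 and 6 without WENR-minus replicate 2.

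**Figure D1:**
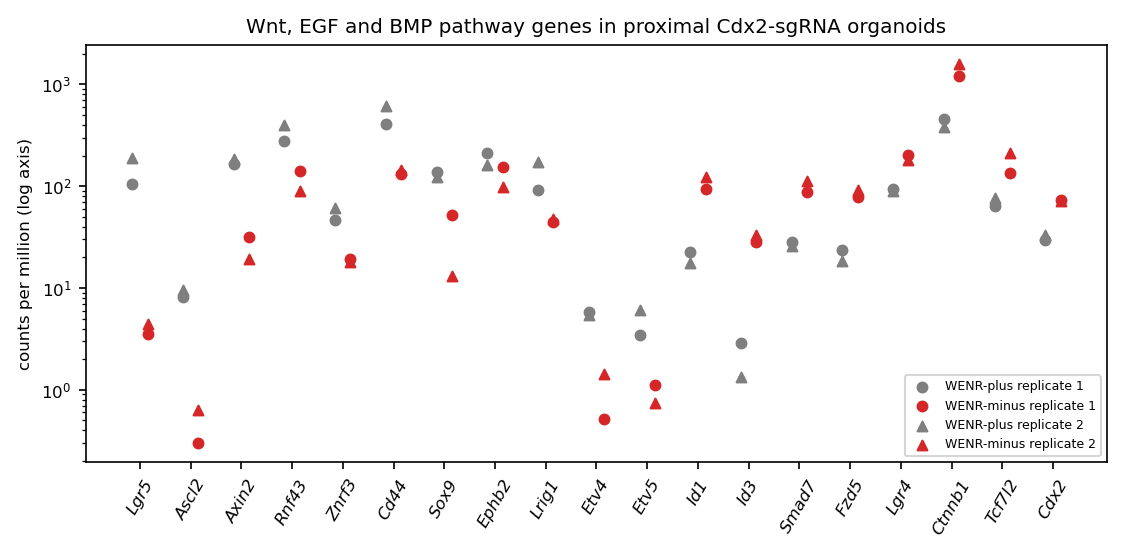
CPM per library (log axis) of genes of the Wnt, BMP and EGF pathways in proximal Cdx2-sgRNA organoids, 2 libraries in WENR-plus and 2 in WENR-minus medium. Lgr5 and Axin2 lie lower and Id1 and Id3 higher in both WENR-minus libraries than in either WENR-plus library.

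The promoters of these genes were searched for the TCF/LEF letters CTTTGAT and CTTTGAA on both strands, in RefSeq windows from 250 bases before to 50 bases after the start site (GRCm38.p6). A match was found in 7.39% of the 10549 tested genes with a window, in 7.78% of the 334 genes that fell and in 8.1% of the 395 that rose. Of the Wnt targets that fell, 6 had a window and 2 held a match, Sp5 and Tnfrsf19. Both sites are shown because they are the only matches among these 6 windows. They lie at chr2:70474808-70474836 on the plus strand, 104 bases before the start of Sp5, and at chr14:61038172-61038200 on the minus strand, 202 bases before the start of Tnfrsf19. The capitals mark the motif.
Sp5: ggcaaggccccCTTTGATcaggaaaatcc
Tnfrsf19: ctgaatgggggATCAAAGtgacaaactag
A match is a description of the letters in the window, not a binding site.

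Most Wnt targets fell in the other groups. In proximal scramble-sgRNA organoids 15 of the 22 genes fell and 2 rose (median −1.99), and in distal Cdx2-sgRNA organoids 13 fell and 2 rose (median −2.25). In the test of the difference from the scramble-sgRNA organoids, where 1.67% of all genes were higher, 1 member was called, Ephb3, a receptor of crypt cells. It stood at 15.5 and 32.4 CPM with the factors and 24.1 and 39.3 CPM without them in proximal Cdx2-sgRNA organoids, and at 44.5 and 50.1 CPM and then 10.7 and 17.0 CPM in scramble-sgRNA organoids (difference 2.17, SE 0.50, adjusted p = 0.0396, lost without WENR-plus replicate 1 or WENR-minus replicate 2, up to 0.129). In the test of the difference from distal Cdx2-sgRNA organoids, Znrf3, Tcf7 and Ccnd1 were called, all with a higher withdrawal value in the proximal organoids. Over all genes 9.86% were called in this direction, and nothing is read from the count. With 1 library left out the call of Ccnd1 held in all 4 cases, that of Znrf3 was lost without WENR-plus replicate 1 (adjusted p = 0.0633) and that of Tcf7 was lost in all 4 (up to 0.0826). Ccnd1, the cyclin D1 gene, was at 201 and 138 CPM and then 352 and 197 CPM, where the groups overlapped (0.70, SE 0.36, adjusted p = 0.229).

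Fzd5, Lgr4, Ctnnb1 and Tcf7l2, which receive or transmit the Wnt signal, rose. Of 16 receptor and co-receptor genes tested Fzd5 and Lgr4 rose and Lgr5 fell. Of 20 destruction complex and nuclear partner genes Ctnnb1 and Tcf7l2 rose and Axin2 fell. Over all genes 3.42% rose and 2.98% fell, and nothing is read from either list as a list. In scramble-sgRNA organoids 1 member of each list rose and 2 and 3 fell (8.73% and 8.24% of all genes). In distal Cdx2-sgRNA organoids 4 and 3 rose and 3 of each fell (14.9% and 18.1%). In the difference from scramble-sgRNA organoids no member was called. Against distal Cdx2-sgRNA organoids 1 and 2 were higher and 0 and 1 lower (9.86% and 7.70%). Ctnnb1, which encodes beta-catenin, stood at 456 and 386 CPM and then at 1221 and 1571 CPM, with both WENR-minus libraries far above both others (1.73, SE 0.16, adjusted p = 0.000421). Fzd5, a Frizzled receptor, rose from 23.4 and 18.6 CPM to 79.1 and 91.7 CPM (2.02, SE 0.15, adjusted p = 0.000224). Lgr4, an R-spondin receptor, rose from 93.0 and 90.5 CPM to 204 and 182 CPM (1.07, SE 0.14, adjusted p = 0.00145). The groups did not overlap for these 3 genes. Tcf7l2, the main TCF factor of the intestine, went from 64.1 and 75.8 CPM to 134 and 214 CPM (1.31, SE 0.24, adjusted p = 0.00666), and without WENR-minus replicate 2 its log2 fold change was 0.94, under the fold threshold. Of 7 Wnt ligands tested 1 fell, Wnt6, from 2.67 and 0.952 CPM to 0 in both WENR-minus libraries, at least 9.49-fold lower (adjusted p = 0.0258), a call lost in each of the 4 cases with 1 library left out and not made by DESeq2.

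Some genes of BMP signalling rose, in medium that lacked the BMP antagonist Noggin. Of 16 BMP pathway and Id genes tested 6 rose, 1 fell and 9 were not called, with a median of 0.57. In scramble-sgRNA and in distal Cdx2-sgRNA organoids 6 rose and 2 fell, with medians of 1.00 and 1.54. Id1, Id2 and Id3 encode inhibitors of helix-loop-helix factors and are direct BMP targets. Id3 stood at 2.90 and 1.32 CPM and then at 28.6 and 33.3 CPM (3.87, SE 0.38, adjusted p = 0.000677). Id1 rose from 22.3 and 17.7 CPM to 94.5 and 124 CPM (2.45, SE 0.29, adjusted p = 0.00117), and Id2 from 150 and 124 CPM to 407 and 612 CPM (1.90, SE 0.35, adjusted p = 0.00716). Both WENR-minus libraries were above both WENR-plus libraries for all 3 genes. The inhibitory Smad genes, which BMP induces as feedback, behaved alike in direction. Smad6 rose from 8.29 and 9.78 CPM to 23.8 and 40.2 CPM (1.82, SE 0.32, adjusted p = 0.00566), and Smad7 from 28.5 and 26.1 CPM to 87.7 and 113 CPM (1.88, SE 0.22, adjusted p = 0.0011). Bambi, a BMP pseudoreceptor, was at 0.232 and 0.264 CPM and then at 0 in both libraries, at least 1.3-fold lower (adjusted p = 0.0439), a call lost in each of the 4 cases with 1 library left out. The call of Id2 was also lost, without WENR-plus replicate 2 (adjusted p = 0.0693).

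Atoh8, a helix-loop-helix transcription factor, rose in the proximal Cdx2-sgRNA organoids and differed from both other groups. It stood at 4.93 and 1.85 CPM and then at 54.4 and 61.8 CPM, with no overlap (4.10, SE 0.45, adjusted p = 0.000879). In proximal scramble-sgRNA organoids it stood at 3.15 and 2.01 CPM with the factors and at 0.434 and 0.469 CPM without them. The difference in withdrawal effect was 6.60 (SE 0.67, adjusted p = 0.00198) against scramble-sgRNA and 4.75 (SE 0.65, adjusted p = 0.000966) against distal Cdx2-sgRNA organoids, and the first of these held with any 1 of the 4 proximal Cdx2-sgRNA libraries left out. Bmp3, a BMP antagonist of the colon, was at 0.464 and 0.529 CPM and then 0.52 and 0.476 CPM, in contrast to scramble-sgRNA organoids, where it was at 33.1 and 24.2 CPM and then 185 and 163 CPM (difference −2.61, SE 0.56, adjusted p = 0.0337, lost with any 1 library left out, up to 0.113).

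The EGF receptor rose, and 3 feedback or output genes of MAPK signalling fell, in medium without EGF. Egfr went from 54 and 30.1 CPM to 140 and 93.0 CPM (1.47, SE 0.28, adjusted p = 0.00803). Lrig1, which limits ErbB signalling and marks crypt progenitors, fell from 92.1 and 172 CPM to 44.6 and 47.8 CPM (−1.52, SE 0.28, adjusted p = 0.00649). These were the 2 calls among 13 ligand and receptor genes tested, and both were lost without WENR-plus replicate 2 (adjusted p = 0.0646 for Egfr and 0.052 for Lrig1). Erbb2 and Erbb3 had adjusted p-values of 0.00978 and 0.00559, with log2 fold changes of 0.90 and 0.86, under the fold threshold, which Erbb3 passed without WENR-plus replicate 1 (1.05). Of 19 MAPK feedback and output genes 3 fell and none rose. For both lists the shares over all genes were 2.98% lower and 3.42% higher. Etv4 and Etv5, ETS factors induced by ERK, fell from 5.80 and 5.39 CPM to 0.52 and 1.43 CPM (−2.47, SE 0.45, adjusted p = 0.00631) and from 3.42 and 6.13 CPM to 1.11 and 0.74 CPM (−2.39, SE 0.39, adjusted p = 0.00446). Spry1, a feedback inhibitor of receptor tyrosine kinases, fell from 16.1 and 20.7 CPM to 5.79 and 9.15 CPM (−1.29, SE 0.28, adjusted p = 0.0129), a call lost without WENR-plus replicate 2 or WENR-minus replicate 1 (up to 0.0963). The libraries of both media did not overlap for any of these called genes. In scramble-sgRNA organoids 5 ligand and receptor and 4 MAPK genes rose and 1 and 2 fell (8.73% and 8.24% of all genes). In distal Cdx2-sgRNA organoids 5 and 5 rose and 2 and 6 fell (14.9% and 18.1%). In the difference from scramble-sgRNA organoids 1 MAPK gene was called, lower (1.93%). Against distal Cdx2-sgRNA organoids 1 and 2 were higher and 3 and 5 lower (9.86% and 7.70%).

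Most S phase and G2M genes fell in both other groups, whereas in proximal Cdx2-sgRNA organoids few were called and the log2 fold changes of all tested members ran from −1.63 to 0.83. Of 43 S phase genes tested, 1 was called in the proximal Cdx2-sgRNA organoids (Cdca7, lower), 36 fell in proximal scramble-sgRNA organoids and 34 fell in distal Cdx2-sgRNA organoids, where 1 rose. The medians were −0.14, −1.99 and −2.94. Of 54 G2M genes tested, 1 was called (Psrc1, lower, a call lost with any 1 library left out at adjusted p from 0.0963 to 0.19), against 48 that fell in scramble-sgRNA and 49 in distal Cdx2-sgRNA organoids, with medians of −0.20, −2.0 and −2.92. DESeq2 called 1 S phase and 2 G2M genes lower and 0 higher. At an unadjusted p under 0.05, edgeR had 2 S phase genes lower and 0 higher, and 7 G2M genes lower and 3 higher.

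The levels with the factors differed between the groups as well. The S phase genes summed to 1226 and 922 CPM in proximal Cdx2-sgRNA WENR-plus libraries and to 1059 and 1053 CPM in WENR-minus libraries. In scramble-sgRNA organoids they summed to 2122 and 2345 CPM and then to 602 and 931 CPM. In distal Cdx2-sgRNA organoids they summed to 1675 and 2064 CPM and then to 512 and 591 CPM. The proximal Cdx2-sgRNA organoids therefore started below the other groups in WENR-plus medium and lay above them in WENR-minus medium. The G2M genes showed the same order, with 4344 and 3700 CPM and then 3790 and 3740 CPM in proximal Cdx2-sgRNA, 5954 and 6303 CPM and then 2305 and 3318 CPM in scramble-sgRNA, and 4895 and 6120 CPM and then 1866 and 2027 CPM in distal Cdx2-sgRNA organoids.

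**Figure D2:**
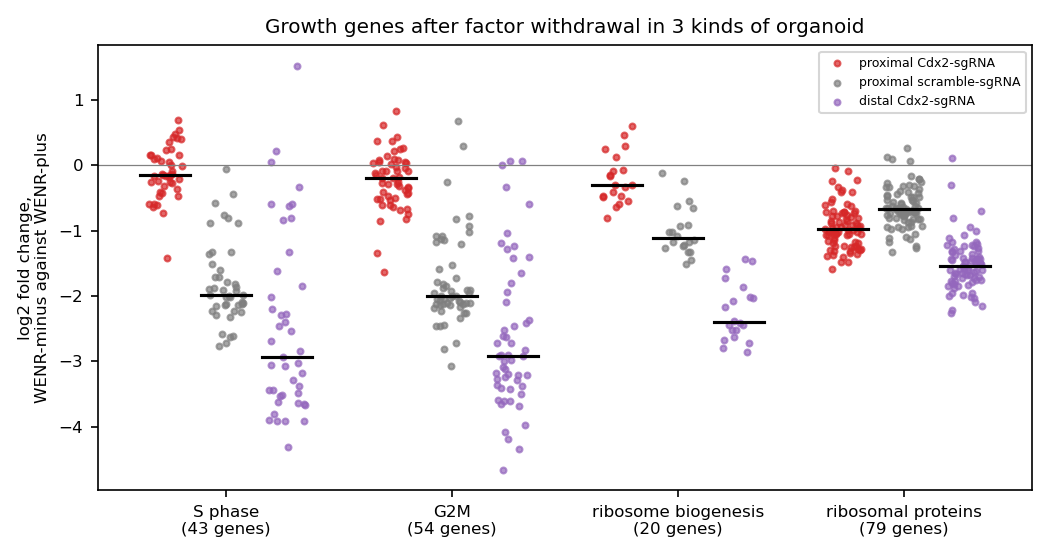
Log2 fold change of WENR-minus against WENR-plus medium for S phase, G2M, ribosome biogenesis and ribosomal protein genes, 1 point per gene, in proximal Cdx2-sgRNA (red), proximal scramble-sgRNA (gray) and distal Cdx2-sgRNA organoids (purple), with the list median as a black line. The S phase medians lie at −0.14, −1.99 and −2.94 and the ribosomal protein medians at −0.98, −0.67 and −1.54.

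The difference in withdrawal effect was tested gene by gene. Against scramble-sgRNA organoids, 19 S phase and 16 G2M genes were called, all with the higher value in proximal Cdx2-sgRNA organoids, where 1.67% of all genes were called in this direction. Against distal Cdx2-sgRNA organoids 33 and 46 were called in the same direction, against 9.86% of all genes. Mki67, a proliferation marker, stood at 270 and 273 CPM and then at 296 and 406 CPM in proximal Cdx2-sgRNA organoids. In scramble-sgRNA organoids it went from 553 and 725 CPM to 105 and 203 CPM, and in distal Cdx2-sgRNA organoids from 548 and 769 CPM to 53.6 and 112 CPM. The difference was 2.42 (SE 0.56, adjusted p = 0.0396) against scramble-sgRNA and 3.36 (SE 0.57, adjusted p = 0.00243) against distal Cdx2-sgRNA organoids. Ccna2 and Ccnb1, cyclins of S phase and mitosis, were called against distal Cdx2-sgRNA (3.53, SE 0.51, adjusted p = 0.00118, and 3.41, SE 0.68, adjusted p = 0.00517) but not against scramble-sgRNA organoids (1.51, adjusted p = 0.102, and 1.86, adjusted p = 0.124). Against scramble-sgRNA organoids the counts rested on single libraries, and the S phase calls were fewest without replicate 1 or replicate 2 of both kinds of organoid. The 19 S phase and 16 G2M calls were fewer with any 1 of the 4 proximal Cdx2-sgRNA libraries left out. They became 22 and 29 with a term for the mouse and 35 and 42 with a term for each culture, and the call of Mki67 was lost without WENR-plus replicate 1, WENR-plus replicate 2 or WENR-minus replicate 2 (adjusted p up to 0.116). Against distal Cdx2-sgRNA organoids nearly as many as the 33 and 46 genes were called with any 1 of the 4 proximal libraries left out. Far fewer were called without replicate 2 of both kinds of organoid.

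Among CDK inhibitors, which stop the cycle, 2 of 7 had a lower withdrawal effect in proximal Cdx2-sgRNA than in scramble-sgRNA organoids, where 1.93% of all genes were called in this direction. Against distal Cdx2-sgRNA organoids 3 were lower (Cdkn1a, Cdkn1b and Cdkn1c) and 1 higher (Cdkn2c), next to 7.70% and 9.86% of all genes. Cdkn1a, which encodes p21, stood at 37.5 and 23.2 CPM and then at 48.3 and 49.0 CPM in proximal Cdx2-sgRNA organoids, with no overlap but no call (0.68, SE 0.21, adjusted p = 0.0514), although without WENR-plus replicate 1 it was called higher (1.08, adjusted p = 0.0081). It went from 25.2 and 21.6 CPM to 98.1 and 88.7 CPM in scramble-sgRNA and from 36.3 and 34.2 CPM to 435 and 373 CPM in distal Cdx2-sgRNA organoids. The withdrawal effect differed by −1.31 (SE 0.29, adjusted p = 0.0358) from the former and by −2.84 (SE 0.30, adjusted p = 0.000304) from the latter. Cdkn1c, which encodes p57, was at 5.10 and 2.96 CPM and then 4.38 and 4.02 CPM, where the groups overlapped. It went from 6.55 and 5.92 CPM to 42.6 and 26.8 CPM in scramble-sgRNA and from 9.97 and 6.29 CPM to 133 and 113 CPM in distal Cdx2-sgRNA organoids (differences −2.41, SE 0.42, adjusted p = 0.017, and −3.86, SE 0.42, adjusted p = 0.000368). None of the 7 CDK inhibitors was called by edgeR for the withdrawal itself in proximal Cdx2-sgRNA organoids, where 2 had an unadjusted p under 0.05 and DESeq2 called 1. Against scramble-sgRNA organoids the call of Cdkn1a was lost in every case but that without WENR-plus replicate 2 (up to 0.0859), and that of Cdkn1c without WENR-minus replicate 2 (0.0639).

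The genes of protein synthesis were split. Cytosolic ribosomal protein genes, a list added after their values were seen, had 34 of 79 members that fell and none that rose, with a median of −0.98. Their levels summed to 30043 and 43511 CPM in WENR-plus and to 15322 and 20448 CPM in WENR-minus libraries. They summed to 31519 and 31422 CPM and then 21638 and 22182 CPM in scramble-sgRNA organoids, where 4 fell (8.24% of all genes). They summed to 23084 and 27581 CPM and then 10949 and 8327 CPM in distal Cdx2-sgRNA organoids, where 70 fell (18.1% of all genes). In the difference of withdrawal effects from scramble-sgRNA organoids none of the 79 was called (median −0.36). In that from distal Cdx2-sgRNA organoids 1 was called, higher (median 0.58), next to 9.86% of all genes. Of the 6 called genes with the largest drop in CPM, 5 are genes of protein synthesis and the other is the metalloproteinase Mmp7. Eef1a1, a translation elongation factor, went from 6068 and 8005 CPM to 3231 and 3391 CPM (−1.09, SE 0.23, adjusted p = 0.0118), and Rps7, a small subunit protein, from 879 and 1400 CPM to 359 and 457 CPM (−1.48, SE 0.25, adjusted p = 0.00491). Rpl13a, Rpl26 and Rpsa fell by 1.34, 1.14 and 1.18 on the log2 scale. The groups did not overlap for these genes, and members of this family share sequence with many pseudogenes, which can split their reads. Of 20 ribosome biogenesis genes edgeR and DESeq2 called none (median −0.29), with 1 higher and 2 lower at an unadjusted p under 0.05, whereas 13 fell in scramble-sgRNA and all 20 in distal Cdx2-sgRNA organoids. No ribosome biogenesis gene was called in the difference from scramble-sgRNA organoids (median 0.78). In the difference from distal Cdx2-sgRNA organoids 18 were called, all higher, next to 9.86% of all genes. Without WENR-plus replicate 2 or WENR-minus replicate 1, 7 and 8 ribosomal protein genes were called lower, and without WENR-plus replicate 1, 52. Leaving out WENR-plus replicate 2 or WENR-minus replicate 1 ended the calls of Rpl13a (up to 0.0715), Rpl26 (up to 0.181) and Eef1a1 (up to 0.0902), the last of which was also lost without WENR-minus replicate 2, and Rpsa was lost without WENR-plus replicate 2 (0.0568).

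Most genes of the mature colonocyte did not rise on withdrawal. Of 32 tested 3 rose and 2 fell (5 and 4 by DESeq2), with a median of −0.15, against 21 that rose in proximal scramble-sgRNA (median 2.41) and 23 in distal Cdx2-sgRNA organoids (median 3.74). In the difference from scramble-sgRNA organoids 10 of the 32 were called and all were lower in proximal Cdx2-sgRNA organoids, where 1.93% of all genes were called in this direction, and against distal Cdx2-sgRNA organoids 19 were lower and 1 higher (7.70% and 9.86% of all genes). The differentiation markers Car1, Krt20, Fabp2 and Muc2 were taken by the authors from earlier studies and measured by qPCR in proximal Cdx2-sgRNA organoids.

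Car1, a carbonic anhydrase of mature colonocytes, stood at 22.4 and 17.0 CPM and then at 19.9 and 11.4 CPM, where the groups overlapped (−0.33, SE 0.37, adjusted p = 0.606). In scramble-sgRNA organoids it went from 207 and 144 CPM to 8710 and 5952 CPM, and in distal Cdx2-sgRNA organoids from 520 and 343 CPM to 8574 and 7377 CPM. The withdrawal effect differed by −5.72 (SE 0.54, adjusted p = 0.00147) from scramble-sgRNA and by −4.54 (SE 0.53, adjusted p = 0.000495) from distal Cdx2-sgRNA organoids. Slc26a3, the chloride and bicarbonate exchanger of the colon surface, was at 2.61 and 2.70 CPM and then 1.71 and 1.75 CPM, against 4.63 and 4.50 CPM and then 55.0 and 45.9 CPM in scramble-sgRNA organoids (difference −4.08, SE 0.49, adjusted p = 0.00494). Both differences held with any 1 of the 4 proximal Cdx2-sgRNA libraries left out. Slc9a3, the apical sodium and proton exchanger, was at 1.57 and 5.39 CPM and then 0.445 and 0.423 CPM, against 3.15 and 1.07 CPM and then 110 and 39.3 CPM (difference −8.11, SE 1.26, adjusted p = 0.0138, lost without WENR-minus replicate 2 at 0.0583), and DESeq2 called its withdrawal value lower (−3.0, adjusted p = 0.0119). Alpi, intestinal alkaline phosphatase, stayed at or under 0.58 CPM in all 4 libraries, against 2.91 and 0.769 CPM and then 99.3 and 47.0 CPM in scramble-sgRNA organoids (−6.23, SE 1.5, adjusted p = 0.0421, lost with any 1 library left out). Fabp2, a fatty acid binding protein, was at 0.812 and 0.74 CPM and then 0.891 and 0.952 CPM, against 5.30 and 9.17 CPM and then 88.1 and 72.5 CPM in scramble-sgRNA organoids, but the difference was not called (−3.22, SE 1.19, adjusted p = 0.146). In distal Cdx2-sgRNA organoids Fabp2 was at 1.55 and 2.49 CPM and then 2.96 and 2.26 CPM, and the difference from these was not called either (−0.12, SE 1.26, adjusted p = 0.986).

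**Figure D3:**
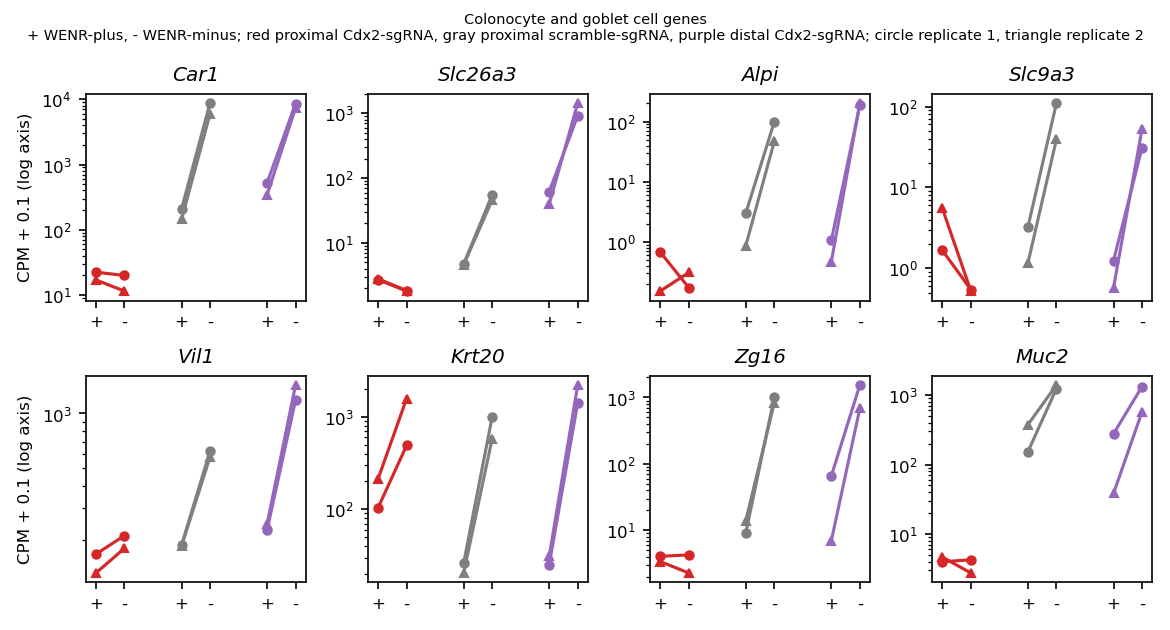
CPM plus 0.1 per library (log axis) of colonocyte and goblet cell genes in proximal Cdx2-sgRNA, proximal scramble-sgRNA and distal Cdx2-sgRNA organoids in both media, 2 libraries per group, with a line joining the libraries of 1 replicate number. Car1 stays at or under 22.4 CPM in the proximal Cdx2-sgRNA libraries and reaches 5952 to 8710 CPM in the WENR-minus libraries of the other groups.

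The colonocyte genes that did rise were Krt20, Slc26a2 and Ceacam1. Krt20, a keratin of surface cells, went from 104 and 213 CPM to 489 and 1572 CPM (2.70, SE 0.56, adjusted p = 0.0113). It rose from 25.9 and 20.3 CPM to 995 and 580 CPM in scramble-sgRNA organoids, and the difference was −2.39 (adjusted p = 0.0975, but 0.0118 by DESeq2, a call) there and −3.31 (SE 0.77, adjusted p = 0.0107) against distal Cdx2-sgRNA organoids. Slc26a2, a sulphate transporter, rose from 105 and 118 CPM to 481 and 826 CPM (2.55, SE 0.35, adjusted p = 0.00197), and Ceacam1, an adhesion molecule, from 310 and 292 CPM to 729 and 1128 CPM (1.63, SE 0.23, adjusted p = 0.00203). Both WENR-minus libraries were above both WENR-plus libraries for all 3 genes. Car2, another carbonic anhydrase, fell from 290 and 493 CPM to 210 and 141 CPM (−1.16, SE 0.29, adjusted p = 0.0232), and Anpep, a brush border peptidase, from 1.74 and 2.86 CPM to 3 reads or fewer per library, at least 12-fold lower (adjusted p = 0.00281). The call of Krt20 was lost without WENR-plus replicate 1 or WENR-minus replicate 2 (up to 0.0749), and that of Car2 without either replicate 2 library (up to 0.195).

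Goblet cell and enteroendocrine genes were low in the proximal Cdx2-sgRNA organoids in both media. Goblet cell genes summed to 118 and 71.5 CPM and then to 278 and 212 CPM, against 1168 and 1779 CPM and then 6687 and 7988 CPM in scramble-sgRNA and 4624 and 1117 CPM and then 16287 and 6147 CPM in distal Cdx2-sgRNA organoids. Of 15 goblet genes tested 1 rose, Sytl2, a vesicle trafficking gene, from 32.5 and 8.25 CPM to 171 and 127 CPM (2.87, a call lost without WENR-plus replicate 2 at adjusted p = 0.0877). Muc2, the main gel-forming mucin, was at 3.89 and 4.55 CPM and then 4.16 and 2.64 CPM (−0.33, SE 0.83, adjusted p = 0.859), against 153 and 375 CPM and then 1241 and 1396 CPM in scramble-sgRNA organoids, but the difference in its withdrawal effect was not called (−2.65, adjusted p = 0.192). Zg16, a goblet cell lectin, was at 3.94 and 3.28 CPM and then 4.16 and 2.17 CPM, against 9.03 and 13.8 CPM and then 1013 and 832 CPM (difference −6.55, SE 1.52, adjusted p = 0.0396, lost with any 1 library left out). Enteroendocrine genes summed to at most 2.38 CPM in any of the 4 libraries, against 71.8 to 256 CPM in the scramble-sgRNA libraries. The 5 Paneth cell genes tested of 8 summed to 718 and 1037 CPM and then 37.5 and 16.3 CPM, nearly all of it Mmp7, against 36.8 and 112 CPM and then 9.54 and 34.9 CPM in scramble-sgRNA organoids. The other 4, Lyz1, Itln1, Pla2g2a and Nod2, each stood at 68 reads or fewer in any of the 4 libraries, and edgeR called none of them, while DESeq2 called 2 of the 5 Paneth cell genes lower. The 3 tuft cell genes tested of 12 went in different directions, with a median of −2.38. Of these Ptgs1, a cyclooxygenase, rose from 45.3 and 27.1 CPM to 127 and 64.1 CPM (1.40, SE 0.38, adjusted p = 0.0322, lost without WENR-plus replicate 2 or WENR-minus replicate 1, up to 0.244). Dclk1, a tuft cell kinase, was at 2.20 and 10.6 CPM and then 0.445 and 0.159 CPM (−4.43, adjusted p = 0.0525), and Alox5ap, which serves leukotriene synthesis, at 1.51 and 16.6 CPM and then 0.223 and 3.17 CPM (−2.38, adjusted p = 0.264). DESeq2 called 1 tuft cell gene higher and 1 lower.

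Several keratins, genes of the epidermal differentiation complex and gastric genes rose. Of 12 epithelial keratins tested 7 rose and none fell, with a median of 1.77 where genes at the count floor take their bound. The abundant simple epithelial keratins gained most in CPM. Krt19 went from 2175 and 1542 CPM to 6826 and 6178 CPM (1.81, SE 0.19, adjusted p = 0.000751), and Krt8 from 1106 and 603 CPM to 2991 and 2990 CPM (1.81, SE 0.25, adjusted p = 0.00199). Both WENR-minus libraries were above both WENR-plus libraries, and both calls held with any 1 library left out. Krt7, a keratin of simple ducts and stomach, rose from 650 and 785 CPM to 1324 and 1668 CPM (1.06, SE 0.25, adjusted p = 0.0189). Krt14, a basal keratin of stratified epithelia, rose from 5.80 and 0.264 CPM to 57.5 and 11 CPM (3.50, SE 1.03, adjusted p = 0.0454), with wide spread within each medium. Krt6a, a keratin of injured epithelium, had no read in either WENR-plus library and stood at 0.742 and 1.32 CPM in WENR-minus libraries, at least 6.21-fold higher (adjusted p = 0.0296), a call lost in each omission of 1 library. Keratins also rose in the other groups, 5 in scramble-sgRNA and 7 in distal Cdx2-sgRNA organoids, where 8.73% and 14.9% of all genes rose. Krt4, a keratin of stratified mucosa, differed: it stood at 257 and 339 CPM and then 1468 and 1465 CPM (2.30, SE 0.60, adjusted p = 0.0296), against 41.5 and 17.1 CPM and then 12.9 and 7.87 CPM in scramble-sgRNA organoids (difference 3.80, SE 0.86, adjusted p = 0.037) and 50.3 and 75.6 CPM and then 19.5 and 54.3 CPM in distal Cdx2-sgRNA organoids (difference 3.07, SE 0.84, adjusted p = 0.023). Each omission of 1 library ended the call of Krt4 for the withdrawal (up to 0.118) and for the difference from scramble-sgRNA organoids (up to 0.0939), its difference from distal Cdx2-sgRNA organoids was lost without WENR-plus replicate 1 or WENR-minus replicate 2 (up to 0.0741), Krt7 was lost in every case but WENR-minus replicate 1 (up to 0.104) and Krt14 without WENR-plus replicate 2 or WENR-minus replicate 1 (up to 0.325). The 7 keratin calls became 3 or 4 with any 1 library left out.

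**Figure D4:**
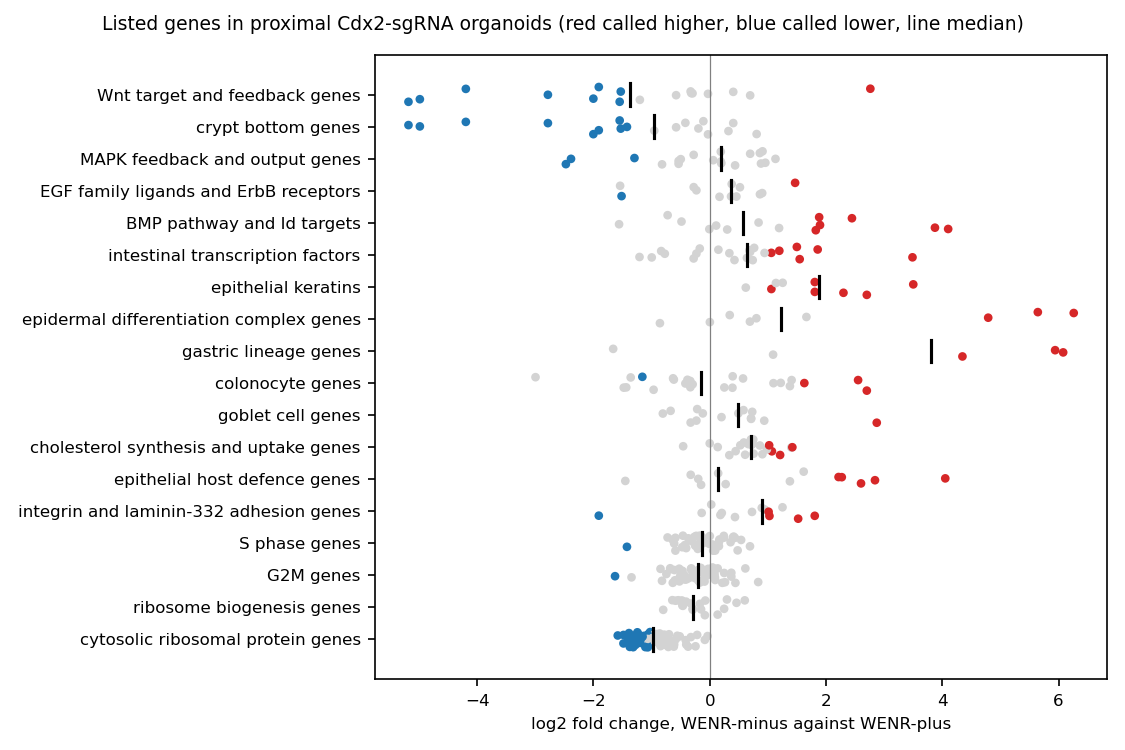
Log2 fold change on withdrawal in proximal Cdx2-sgRNA organoids for the tested members of selected gene lists, 1 point per gene, coloured red where called higher and blue where called lower, with the list median as a line and genes at the count floor not drawn. The Wnt targets centre on −1.37, the S phase and G2M genes on −0.14 and −0.20, and the keratins on 1.89 (1.77 with floor genes at their bound).

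Of 16 genes of the epidermal differentiation complex, which encode proteins of the cornified envelope, 4 rose. Sprr1a, an envelope precursor, went from 9.63 and 5.66 CPM to 230 and 532 CPM (5.64, SE 0.66, adjusted p = 0.0011). Rptn, which encodes repetin, rose from 2.90 and 1.27 CPM to 71.8 and 43.5 CPM (4.79, SE 0.51, adjusted p = 0.000751), and its withdrawal effect differed from that of scramble-sgRNA organoids (5.50, SE 0.86, adjusted p = 0.0138). Of the 16 genes 1 other was called in that test, Sprr2a3, lower, next to 1.67% higher and 1.93% lower over all genes. Against distal Cdx2-sgRNA organoids 1 was higher and 5 were lower (median −1.40), next to 9.86% and 7.70% of all genes. Ivl, which encodes involucrin, rose from 0.348 and 1.16 CPM to 6.61 and 111 CPM (6.26, SE 1.22, adjusted p = 0.00988). The groups did not overlap for these genes, but the WENR-minus libraries of Ivl differed widely from each other and its call was lost without either replicate 2 library (up to 0.0801). The other called member, S100a4, was at least 4.81-fold higher (adjusted p = 0.0366) and lost its call in each omission of 1 library. In the other groups 8 members rose in scramble-sgRNA and 10 in distal Cdx2-sgRNA organoids, where 8.73% and 14.9% of all genes rose.

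Of 18 gastric lineage genes 8 passed the filter and 3 of these rose. Muc1, a membrane mucin of stomach and ducts, stood at 0.754 and 1.48 CPM and then at 15.1 and 138 CPM (6.08, SE 1.12, adjusted p = 0.00677). Its effect differed from that of scramble-sgRNA (6.59, SE 1.64, adjusted p = 0.0468) and distal Cdx2-sgRNA organoids (5.97, SE 1.38, adjusted p = 0.0106). Ctse, which encodes the gastric protease cathepsin E, rose from 6.21 and 10.1 CPM to 77.3 and 255 CPM (4.35, SE 0.70, adjusted p = 0.00404), and Onecut2, a foregut transcription factor, from 1.86 and 1.22 CPM to 29 and 160 CPM (5.94, SE 1.06, adjusted p = 0.00605). Both WENR-minus libraries were above both WENR-plus libraries for each gene, and replicate 2 was the higher of the WENR-minus libraries in all 3. Without WENR-plus replicate 2 the calls of Muc1 and Onecut2 were lost (adjusted p = 0.0565 and 0.0621), and that of Muc1 against scramble-sgRNA organoids was lost in every case but WENR-minus replicate 1 (up to 0.116).

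Transcription factors of the intestinal epithelium rose in part. Of 23 tested edgeR called 6 higher, Cdx2 itself among them, and none lower, while DESeq2 called 6 higher and 1 lower. Klf4, a factor of differentiated surface cells, went from 93.8 and 89.8 CPM to 320 and 346 CPM (1.86, SE 0.31, adjusted p = 0.00461), and Hnf4a, a nuclear receptor of enterocyte genes, from 65.8 and 31.4 CPM to 155 and 129 CPM (1.55, SE 0.29, adjusted p = 0.00786). Foxa1, a pioneer factor of endoderm, stood at 61.9 and 48.1 CPM and then at 139 and 172 CPM (1.5, SE 0.16, adjusted p = 0.000879). In scramble-sgRNA organoids it was at 120 and 145 CPM and then 91.5 and 100 CPM, and in distal Cdx2-sgRNA organoids at 158 and 143 CPM and then 116 and 126 CPM, so the withdrawal effect was higher by 1.96 than in scramble-sgRNA organoids (SE 0.23, adjusted p = 0.00428) and higher by 1.81 than in distal Cdx2-sgRNA organoids (SE 0.23, adjusted p = 0.000709). The calls of these 3 genes held with any 1 of the 4 libraries left out. Klf5, a factor of crypt progenitors, rose from 214 and 178 CPM to 369 and 448 CPM (1.06, SE 0.15, adjusted p = 0.00235), near the fold threshold, and Creb3l3, a regulator of lipid genes, from 0.232 and 0.159 CPM to 1.48 and 2.96 CPM (3.49, SE 0.80, adjusted p = 0.0168, lost in every case but WENR-minus replicate 1, up to 0.124). Klf5 fell under the fold threshold without either replicate 2 library, at a log2 fold change of 0.92 in the lower case. Of 25 Hox genes tested edgeR and DESeq2 called none, and 1 had an unadjusted p under 0.05.

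Other groups moved in part. Of 24 cholesterol synthesis and uptake genes 4 rose and none fell (median 0.72): Fdps, Fdft1, Nsdhl and Hsd17b7, at 1.21, 1.07, 1.02 and 1.42 on the log2 scale. Of 20 fatty acid oxidation and PPAR genes tested 3 rose and none fell (median 0.01), while DESeq2 called 3 higher and 3 lower. Those that rose included Cpt1a, the carnitine transferase of mitochondrial import, and Pparg, a lipid-sensing nuclear receptor (1.40 and 1.51). Of 17 epithelial host defence genes 5 rose: Duox2 and its partner Duoxa2, which produce hydrogen peroxide (2.22 and 2.60), the chemokine Cxcl5 (4.05, SE 0.54, from 18.3 and 10.7 CPM to 339 and 142 CPM), the antibacterial Lypd8 (2.27) and the cytokine Il18 (2.84). Of 15 adhesion genes the integrins Itgb6 and Itga3, the laminin chain Lamb3 and the linker Plec rose (1.81, 1.03, 1.52 and 1.01) and Cd44 fell. Of 18 fetal, regenerative and YAP target genes Clu, Il1rn and S100a6 rose and Ly6c1 fell. Clu, which encodes clusterin, went from 498 and 322 CPM to 1805 and 2862 CPM (2.51, SE 0.40, adjusted p = 0.00404). The calls of Cpt1a, Cxcl5, Itgb6, Lamb3 and Clu held with any 1 library left out, whereas others were lost (adjusted p up to 0.22, for Duoxa2). Without WENR-plus replicate 2 this held for Fdps, Fdft1, Nsdhl, Hsd17b7, Pparg, Plec, Itga3, Duox2, Duoxa2, Lypd8, Il1rn, S100a6 and Ly6c1. Without WENR-minus replicate 1 it held for Fdps, Hsd17b7, Itga3, Duox2, Duoxa2, Lypd8 and Ly6c1, without WENR-minus replicate 2 for Nsdhl, Pparg, Plec, Duoxa2 and Il18, and without WENR-plus replicate 1 for Pparg, Plec and Il18. In the following lists at most 2 genes were called in either direction, next to 3.42% higher and 2.98% lower over all genes, and nothing is read from them as lists. E2f2 rose of 17 cyclin, CDK and E2F genes, Cldn23 and Tjp3 rose and Cldn2 fell of 14 tight junction genes, and Creld2 rose and Xbp1 fell of 21 protein folding genes. Of 20 interferon response genes Oasl2 rose, and of 19 p53 target genes Pmaip1 rose and Ccng1 and Eda2r fell. The calls of E2f2, Tjp3 and Eda2r held with any 1 library left out. Those of Creld2 (up to 0.284) and Oasl2 (up to 0.137) were kept only without WENR-minus replicate 2 and that of Pmaip1 (up to 0.179) only without WENR-plus replicate 1, while Ccng1 was lost without WENR-plus replicate 1 or WENR-minus replicate 2 (up to 0.143) and Cldn23 without either WENR-plus library (up to 0.0609). Among 16 glycolysis, 17 hypoxia, 21 amino acid stress and 13 Notch pathway genes edgeR called none. At an unadjusted p under 0.05 there were 2 higher and 2 lower, 5 lower, 1 lower, and 1 higher and 1 lower, and DESeq2 called 1 gene, of the amino acid stress list, lower.

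Among protein-coding genes that averaged 5 CPM or more in the higher group, the steepest rises besides those above were Slurp1, Mcpt2, Mucl3, Aqp3, Psca and Vnn1. Slurp1, a secreted Ly6 family protein of squamous epithelium, went from 0.406 and 0.212 CPM to 17.1 and 12.9 CPM (5.58, adjusted p = 0.00242). Psca, prostate stem cell antigen, rose from 7.77 and 2.06 CPM to 85.3 and 132 CPM (4.47), and Vnn1, a pantetheinase, from 22.3 and 9.46 CPM to 261 and 413 CPM (4.41). Aqp3, a water channel, rose from 7.25 and 0.423 CPM to 122 and 60.1 CPM (4.57). Mcpt2, a mast cell protease, rose from 0.232 and 0.159 CPM, at 4 and 3 reads, to 6.90 and 6.98 CPM (5.11). Mucl3, a mucin-like gene, rose from 2.20 and 0.212 CPM to 37.1 and 33.7 CPM (4.88). With 1 library left out the log2 fold change of Mucl3 ran from 4.00 to 7.35. Among the largest rises in CPM were also Gsto1, a glutathione transferase, from 848 and 651 CPM to 2089 and 1730 CPM (1.35), and Actb, cytoplasmic actin (1.17, lost without WENR-plus replicate 2 at adjusted p = 0.0567). The calls of the other 7 genes of this paragraph held with any 1 library left out, and their groups did not overlap.

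**Figure D5:**
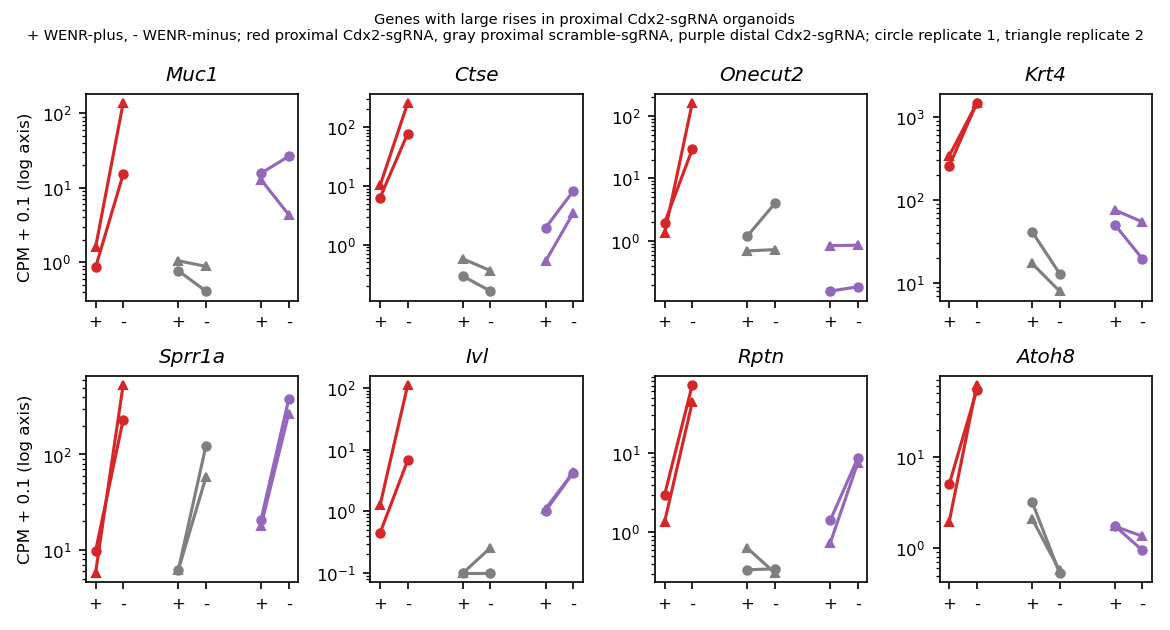
CPM plus 0.1 per library (log axis) of 8 genes that rose on withdrawal in proximal Cdx2-sgRNA organoids (red), beside proximal scramble-sgRNA (gray) and distal Cdx2-sgRNA organoids (purple), 2 libraries per group and medium. Each gene lies higher in both red WENR-minus libraries than in either red WENR-plus library, and Muc1 (15.1 and 138 CPM) and Ivl (6.61 and 111 CPM) differ widely between the WENR-minus libraries.

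The steepest falls, besides Lgr5 and Ascl2, included secreted and membrane proteins that were abundant in WENR-plus medium. Mmp7, a matrix metalloproteinase of Paneth cells and of Wnt-driven epithelium, stood at 716 and 1031 CPM and then at 35.7 and 15.8 CPM (−5.09, SE 0.71, adjusted p = 0.0022). In the other groups it was at 53.9 CPM or less in every library, and the difference in withdrawal effect was −4.05 (SE 0.95, adjusted p = 0.0116) against distal Cdx2-sgRNA and −3.30 (adjusted p = 0.0596) against scramble-sgRNA organoids. Trf, which encodes transferrin, fell from 294 and 378 CPM to 10.3 and 4.28 CPM (−5.54, SE 0.79, adjusted p = 0.0025). Aqp1, a water channel, fell from 39.5 and 85.1 CPM to 0.594 and 0.529 CPM (−6.78, SE 0.77, adjusted p = 0.00098), and more than in scramble-sgRNA organoids (difference −4.41, SE 0.92, adjusted p = 0.0305, kept only without WENR-plus replicate 1, up to 0.107). Irf8, an interferon regulatory factor, fell from 4.99 and 14.1 CPM to 0.594 and 0.476 CPM (−4.16, SE 0.63, adjusted p = 0.00326). Cldn2, the claudin of crypt tight junctions, fell from 163 and 367 CPM to 32.2 and 37.7 CPM (−2.92, SE 0.65, adjusted p = 0.0148, kept only without WENR-plus replicate 1, up to 0.101). The groups did not overlap for these genes. Cxcl15 and Krt83 were at 3 reads or fewer in each WENR-minus library and were lower by the test. Cxcl15 stood at 1.62 and 14.8 CPM in WENR-plus libraries, at 28 and 280 reads. Krt83 stood at 0.754 and 97.5 CPM there, at 13 and 1844 reads, and kept its call only without WENR-plus replicate 1 (up to 0.295). Abca8b was at 0.522 and 20.1 CPM and then 0.0742 and 0.423 CPM, with an adjusted p of 0.04 that rose to 0.709 without WENR-plus replicate 2. The falls of Mmp7, Trf, Aqp1, Irf8 and Cxcl15 held with any 1 library left out. Rap1gap2 and Hspb8 fell by 4.78 and 4.06 on the log2 scale, but Rap1gap2 kept its call only without WENR-plus replicate 1 (up to 0.0881) and Hspb8 lost it without either replicate 2 library (up to 0.184).

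Across all genes, the withdrawal effect in proximal Cdx2-sgRNA organoids differed from that in proximal scramble-sgRNA organoids for 550 genes (3.60%), 255 with the higher and 295 with the lower value in the proximal Cdx2-sgRNA organoids. It differed from that in distal Cdx2-sgRNA organoids for 2684 genes (17.6%), 1507 higher and 1177 lower. Besides the genes above, the largest differences from scramble-sgRNA organoids included Plet1, an epithelial surface protein, and Adra2a, an adrenergic receptor. Plet1 stood at 8.41 and 2.01 CPM and then at 43.7 and 19.0 CPM, against 21.6 and 24.9 CPM and then 5.02 and 4.79 CPM in scramble-sgRNA organoids (difference 4.83, SE 0.87, adjusted p = 0.0185). Adra2a was at 2.67 and 4.39 CPM and then 0.371 and 0.212 CPM (−3.61, a call lost without either replicate 2 library, up to 0.0903), with a difference of −6.55 (SE 1.01, adjusted p = 0.0138, lost without WENR-minus replicate 2). Xbp1, a factor of secretory cell protein folding, fell from 187 and 215 CPM to 97.2 and 59.0 CPM (−1.36, SE 0.26, adjusted p = 0.00766, lost without WENR-plus replicate 2 at 0.0563), with a difference of −1.84 (SE 0.36, adjusted p = 0.0254, lost without either replicate 2 library, up to 0.0657). The 255 and 295 calls against scramble-sgRNA organoids became 384 and 445 with a term for the mouse and 804 and 792 with a term for each culture. They were fewer without WENR-plus replicate 1, WENR-plus replicate 2 or WENR-minus replicate 2. They were fewest without replicate 1 or replicate 2 of both kinds of organoid, where edgeR still had many genes at an unadjusted p under 0.05.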

How the data were processed

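Total RNA was sequenced from 16 organoid libraries. Per the labels and the study's methods, the authors quantified reads with Salmon 1.1.0 against GENCODE mouse release M23 (mm10) and deposited estimated counts per transcript, which need not be whole, with TPM and effective lengths. The transcript estimates were summed to genes and rounded. GENCODE M21 names matched 139864 of 140748 transcripts, and the other 884 held 0.257% to 0.509% of the counts. The matched transcripts formed 54123 genes, of which 15289 passed the filter. TPM and effective lengths entered only the length-scaled alternative. Total counts per library (12465194 to 18922143) limit precision at low counts, and intervals and floors cover counting error only.

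Groups came from the labels. edgeR 4.0.16 (R 4.3.3) was used with filterByExpr, TMM and the quasi-likelihood test on all 16 libraries, with 1 coefficient per group (8 residual degrees of freedom) and a prior count of 0.125. A call needed a Benjamini-Hochberg adjusted p below 0.05 and a log2 fold change beyond 1 in either direction. The submitters' processing notes name DESeq2 1.32 and the study's supplement names another version. DESeq2 1.42.0 was run here as an alternative. A gene with 3 reads or fewer in every library of a group is given as a bound against 3 reads per library. Gene members and lists were chosen with earlier results of these data known. Genes were named by rule: Cdx2, the 7 markers of the study, the 12 steepest called rises and falls among protein-coding genes whose groups did not overlap and whose higher group averaged 5 CPM or more, the 6 largest rises and falls in CPM, the 5 largest differences each way in each test of a difference, and list members. Overlapping genes and near-identical copies were counted as Salmon split them.

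The biological replicates of a group came from separate mice. Whether a replicate number is the same mouse in every group is not stated in the titles, so the term for the mouse is a term for the replicate number. In the Cdx2-sgRNA groups mouse and clone cannot be told apart. Libraries of the same number deviated together from their group means between WENR-plus and WENR-minus. The correlations across genes were 0.517 in proximal scramble-sgRNA, 0.640 in proximal Cdx2-sgRNA, 0.359 in distal scramble-sgRNA and 0.518 in distal Cdx2-sgRNA organoids. Alternatives were DESeq2, RLE size factors, other filters, only the libraries of the comparison, a term for the mouse or for each culture, length-scaled counts, no mitochondrial genes, no fold threshold and omission of each replicate. A replicate was left out only in the groups of the comparison, and all other libraries stayed in the fit. The distal scramble-sgRNA libraries served the fit and were not compared. A member of the gene lists is not reported here.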

Additional observations from a re-analysis of the deposited data

Results flagged for a closer look

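The withdrawal effect in proximal Cdx2-sgRNA organoids differed from that in proximal scramble-sgRNA organoids, by the edgeR test of the difference itself, for each of the following genes. On the log2 scale the difference was 6.60 for Atoh8, 6.59 for Muc1, 5.50 for Rptn, 4.83 for Plet1, 3.80 for Krt4, 2.42 for Mki67, 2.17 for Ephb3 and 1.96 for Foxa1. It was −8.11 for Slc9a3, −6.55 for Zg16, −6.55 for Adra2a, −6.23 for Alpi, −5.72 for Car1, −4.41 for Aqp1, −4.31 for Irf8, −4.08 for Slc26a3, −2.61 for Bmp3, −2.41 for Cdkn1c, −1.84 for Xbp1, −1.31 for Cdkn1a and −1.29 for Vil1. Ubxn10 and Tnfsf15 also differed (adjusted p = 0.0408 and 0.0419), with at least 1 group at 3 reads or fewer, so that no size is given. With 1 proximal Cdx2-sgRNA library left out, the call of Irf8 was lost without either replicate 2 library (adjusted p up to 0.0829), that of Vil1 without WENR-plus replicate 1 or WENR-minus replicate 2 (up to 0.0854), that of Ubxn10 in every case but WENR-minus replicate 1 (up to 0.135) and that of Tnfsf15 in all 4 cases (up to 0.197).

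By the same test against distal Cdx2-sgRNA organoids the difference was 5.97 for Muc1, 3.53 for Ccna2, 3.41 for Ccnb1, 3.36 for Mki67, 3.07 for Krt4, 2.43 for Tcf7, 2.34 for Ccnd1, 1.81 for Foxa1 and 1.49 for Znrf3. It was −5.15 for Slc26a3, −4.54 for Car1, −4.05 for Mmp7, −3.86 for Cdkn1c, −3.31 for Krt20 and −2.84 for Cdkn1a. Among genes with a group at 3 reads or fewer, the value in proximal Cdx2-sgRNA organoids was higher for Vnn3, Lor, Rasl11b, Slc28a3 and Chodl (adjusted p = 0.0371, 0.00534, 0.015, 0.0357 and 0.00458), and lower for Cacna1e, Ggt1, Prss30, Fam161a and Tchhl1 (adjusted p = 0.0057, 0.0159, 0.0145, 0.00314 and 0.0291). With 1 library left out, the calls of Vnn3 and Slc28a3 were lost in all 4 cases (up to 0.0729 and 0.0933), those of Ggt1 and Prss30 without WENR-plus replicate 1 (up to 1 and 0.0996) and those of Fam161a and Tchhl1 without WENR-plus replicate 2 (up to 0.0554 and 1).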

How the results depend on the processing

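For the withdrawal in proximal Cdx2-sgRNA organoids, the 523 higher and 455 lower calls of edgeR became 0 and 0 with only the libraries of the comparison and 1273 and 790 with no fold threshold. The lower calls became 751 with no filter on low counts and 811 with a replicate block for each culture. With replicates left out the higher calls ran from 127 to 689 and the lower calls from 34 to 522, with the lowest values without replicate 2 of every group. Without WENR-plus replicate 2 they were 192 and 121, and the lower calls were 280 without replicate 1 of every group, 303 without WENR-minus replicate 1 and 249 without WENR-minus replicate 2. For the difference from scramble-sgRNA organoids, the 255 higher and 295 lower calls became 577 and 589 with DESeq2, 694 and 902 with no filter, 25 and 57 with only the libraries of the comparison, 384 and 445 with a replicate block for the mouse and 804 and 792 with one for each culture. The lower calls became 457 with at least 10 counts in every library and the higher calls 147 with length-scaled counts. With replicates left out they ran from 0 to 255 and from 0 to 325. For the difference from distal Cdx2-sgRNA organoids, the 1507 higher and 1177 lower calls kept within 1.5 times under each alternative but omission of a whole replicate, and with replicates left out they ran from 148 to 1364 and from 172 to 1231. The cause of these shifts was not tested.

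Of the 978 genes called for the withdrawal, 930 were also called in the same direction by DESeq2, 967 with the mouse block and 964 with the culture block. With length-scaled counts 758 were, with at least 10 counts in every library 804 (159 were not tested) and with only the libraries of the comparison 0. Fewer than 978 were with any 1 of the 4 libraries left out, and fewest of these without WENR-plus replicate 2. Omission of replicate 1 or of replicate 2 in both media also left fewer, and that of replicate 2 the least. Length-scaled counts ended the withdrawal calls of Etv5, Sox9, E2f2, Krt14, Hsd17b7, Creld2, Plec, Plet1, Ptgs1 and Hspb8 and the called differences of Ephb3, Bmp3, Ubxn10, Tnfsf15 and Slc28a3. The mouse block changed no call of a gene followed in the text. The culture block gained the calls of Krt20 (difference from scramble-sgRNA) and Slc9a3 (withdrawal), as did DESeq2 and no filter, and lost that of Tnfsf15 (difference from scramble-sgRNA), and changed no other call. The uncalled withdrawal values of Car1 and Muc2 changed sign with replicates left out, running from −0.75 to 0.020 for Car1 (0.020 without WENR-minus replicate 2) and from −0.77 to 0.10 for Muc2 (0.10 without replicate 2). Depth limits the genes at or under 3 reads, including 46 genes that fell to that level and 21 that rose from it.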
